A study of Homo sapiens with 4 samples.

Results

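AMACR, ECI2 and 7 further genes of fatty acid oxidation were read across the 4 arrays of the series. AMACR and ECI2 were picked because their response to dihydrotestosterone (DHT) differed between the siRNAs, so those responses are given as a description with no test. ECI1, ACOX3, HSD17B4, SCP2, DECR1 and CPT1A were added as genes of peroxisomal or mitochondrial beta-oxidation. PECR was listed with them, although it works toward chain elongation. Of the 9 genes, 8 had a named probe set, out of 17687 named genes in all, and the signal of SCP2 was not analysed here.

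Beta-oxidation removes carbon units from the carboxyl end of an acyl-CoA. Very long and methyl-branched chains start in peroxisomes, and most other chains are burned in mitochondria after import as carnitine esters. Prostate cancer cells are known for active lipid use, and AMACR protein is a tissue marker of prostate adenocarcinoma.

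The cells were 22Rv1, a human line established from castration-resistant prostate cancer. The 4 groups were siOCT1 cells with 10 nM DHT, siOCT1 cells with ethanol vehicle, siControl cells with 10 nM DHT and siControl cells with ethanol vehicle, where siOCT1 targets the octamer-binding factor OCT1 and siControl is the control siRNA. All cells were kept for 3 days in phenol red-free medium with 2.5% charcoal/dextran-treated serum, transfected 48 h before the ligand and exposed to it for 24 h. Each group was 1 array of total RNA, so no difference has a replicate check, and the level of the targeted factor was not analysed here.

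Promoter sequences of 3 genes are shown first, because AMACR and ECI2 had nearly equal DHT responses in siControl cells and their windows differ in the common promoter elements, while PECR held 7 of the 8 letters of the octamer that OCT1 binds. Each window runs from 250 bases before to 50 bases after an annotated start, on the minus strand of GRCh38.p14, from RefSeq. They are chr5:34008001-34008300 for AMACR, chr6:4135526-4135825 for ECI2 and chr2:216081760-216082059 for PECR. Capitals mark the CCAAT box on the opposite strand (ATTGG) in AMACR, the GC box on the opposite strand (CCGCCC) in ECI2 and 7 letters of the octamer on the opposite strand (TTTGCAT) in PECR.
AMACR: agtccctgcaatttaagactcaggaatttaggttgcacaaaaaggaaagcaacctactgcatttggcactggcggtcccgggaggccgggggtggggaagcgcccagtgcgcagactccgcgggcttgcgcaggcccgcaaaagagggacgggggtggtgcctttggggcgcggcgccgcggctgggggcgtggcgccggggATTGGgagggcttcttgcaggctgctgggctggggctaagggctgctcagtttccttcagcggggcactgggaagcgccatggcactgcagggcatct
ECI2: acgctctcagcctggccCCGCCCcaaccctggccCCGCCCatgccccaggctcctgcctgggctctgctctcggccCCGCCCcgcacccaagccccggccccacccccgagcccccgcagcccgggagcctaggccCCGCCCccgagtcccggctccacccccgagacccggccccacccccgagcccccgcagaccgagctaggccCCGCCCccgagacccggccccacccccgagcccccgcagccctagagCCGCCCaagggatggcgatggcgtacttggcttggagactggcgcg
PECR: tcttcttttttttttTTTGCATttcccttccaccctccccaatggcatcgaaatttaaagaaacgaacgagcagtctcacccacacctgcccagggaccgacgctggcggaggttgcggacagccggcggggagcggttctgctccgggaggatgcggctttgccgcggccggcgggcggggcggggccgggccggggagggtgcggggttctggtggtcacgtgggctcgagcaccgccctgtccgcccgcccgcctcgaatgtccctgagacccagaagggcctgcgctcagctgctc

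In all, 8 of the 9 genes had 11 such windows. SCP2 was among them, and DECR1 had no window and was not searched. The GC box, GGGCGG or CCGCCC, matched 6 times in the printed ECI2 window, at positions -233, -216, -174, -114, -43 and 5 from the start, and 0 times in the AMACR window. It was present in 8 of the 11 windows, against 45% of all 35116 RefSeq windows of that length. ECI2, ACOX3 and SCP2 had 2 windows each, so the windows are not separate genes. The share of G and C letters was 79% in the printed ECI2 window and 65.7% in the AMACR window. The counts were not adjusted for it. The CCAAT box, CCAAT or ATTGG, matched in AMACR at position -48 and in PECR at -212, against 34.6% of all windows holding it. The full octamer, ATGCAAAT or ATTTGCAT, was in 0 of the 11 windows and in 1.77% of all windows. Its 7 letters ATGCAAA or TTTGCAT, which every full octamer contains, were in the PECR window at -235 and in 4.46% of all windows. The androgen receptor element arm AGAACA or TGTTCT was in 0 of the 11 windows, against 14.8% of all. These matches describe letters in these windows only.

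**Figure D1:**
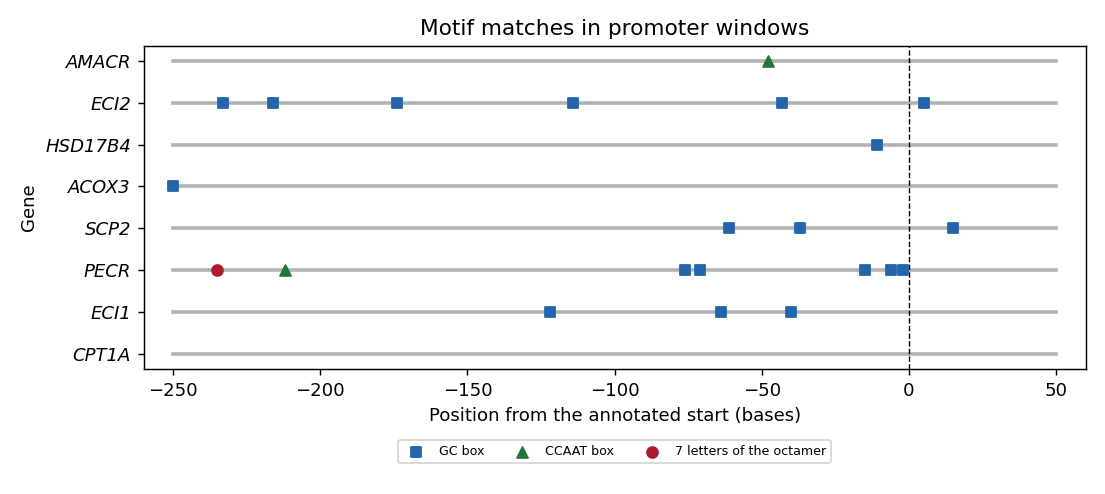
Motif matches in the first promoter window of 8 genes (SCP2 included, DECR1 without a window), by position in bases from the annotated start (dashed line). Squares are GC boxes, triangles CCAAT boxes and the circle 7 letters of the octamer. ECI2 holds 6 GC boxes and AMACR 0.

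The median log2 signal of an array was 5.99 to 6.03, and Pearson r between arrays, over probe sets, was 0.97 to 0.987. Background, the 95th percentile of 612 negative control probe sets, was 6.91 and 7.39 on the siOCT1 arrays with DHT and vehicle, and 6.99 and 6.62 on the siControl arrays with DHT and vehicle. Genes are called measured if they passed 6.51 on at least 1 array, which was so for 8843 genes. All 6 luminal markers with a probe set were above background on every array, between 9.96 and 15.72, among them EPCAM and keratins KRT8 and KRT18. Of 8 markers of other cell types, 1 was above background on every array, albumin (ALB). The markers moved with the groups, and their part in the results was not tested. The summed linear signal of the luminal list was 76363 and 74271 in siOCT1 cells with DHT and vehicle, and 92601 and 48623 in siControl cells with DHT and vehicle. That of the other markers was 3236 and 10623 in siOCT1 cells with DHT and vehicle, and 846 and 2284 in siControl cells with DHT and vehicle, most of it ALB. The luminal sum is weighted to its brightest gene, ESRP1 on the siOCT1 arrays and KRT8 on the siControl arrays, and does not describe the list as a whole. KRT8 read 14.28 in siOCT1 cells with DHT and 13.36 with vehicle, against 15.72 in siControl cells with DHT and 13.87 with vehicle, highest on the same array as AMACR and ECI2. KRT18 was also highest there, whereas EPCAM (13.38), CDH1 (11.31) and HOXB13 (9.96) were lowest on that array. ESRP1 was highest in siOCT1 cells with vehicle, at 15.30. In the limma fit KRT8 fell by 0.97 with siOCT1 (adjusted p of 0.0342), and the luminal splicing regulator ESRP1 rose by 1.58 (adjusted p of 0.00393). ALB rose by 2.27 with siOCT1 (limma adjusted p of 0.00234) and fell by 1.72 with DHT (limma adjusted p of 0.0286).

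The member genes are described by role, starting with those that feed peroxisomes. AMACR encodes the racemase that turns branched acyl-CoAs into the stereoisomer that peroxisomal oxidases accept. Its log2 signal was 7.72 in siOCT1 cells with DHT and 7.83 with vehicle, against 10.29 in siControl cells with DHT and 7.90 with vehicle. A single array was high, and the other 3 lay within 0.18 of each other. With DHT, AMACR was 5.94-fold lower in siOCT1 than in siControl cells, and in vehicle the difference was -0.07. DHT against vehicle gave -0.11 in siOCT1 and 2.39 in siControl cells. Among measured genes, 75 had a larger DHT difference in siControl cells, and 5410 did in siOCT1 cells. The change of the response, siOCT1 minus siControl, was -2.50, and 21 measured genes had a lower one. AMACR was chosen on its DHT responses, so these ranks follow from that choice and test nothing. All 4 values lay above background, but the low ones were not far from it. In siOCT1 cells AMACR read 7.72 beside a background of 6.91 with DHT, and 7.83 beside 7.39 with vehicle.

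RefSeq annotates a read-through transcript, C1QTNF3-AMACR, that overlaps AMACR, and it has a probe set of its own. It read 8.12 in siOCT1 cells with DHT and 7.11 with vehicle, against 8.19 in siControl cells with DHT and 7.02 with vehicle. Both DHT arrays were high here, with DHT differences of 1.01 in siOCT1 and 1.16 in siControl cells. The siOCT1 vehicle value lay below its background, so the siOCT1 response stands as at least 1.65-fold. The change of the response was -0.15, beside -2.50 for AMACR, a contrast chosen after the values were seen. The probes of overlapping transcripts can share signal, so each of these values is uncertain to that extent.

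ECI2 encodes an enoyl-CoA isomerase of peroxisomes and mitochondria that moves double bonds of unsaturated chains into the position the pathway needs. Its log2 signal was 12.39 in siOCT1 cells with DHT and 11.76 with vehicle, against 13.82 in siControl cells with DHT and 11.44 with vehicle. As for AMACR, the siControl array with DHT was the highest, and the other 3 spanned 0.95. With DHT, ECI2 was 2.69-fold lower in siOCT1 than in siControl cells, and in vehicle the difference was 0.32. DHT against vehicle gave 0.63 in siOCT1 and 2.38 in siControl cells, and 76 measured genes had a larger one in siControl cells. The change of the response was -1.75, and 105 measured genes had a lower one. ECI2 too was chosen on its DHT responses, so its ranks follow from that choice.

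**Figure D2:**
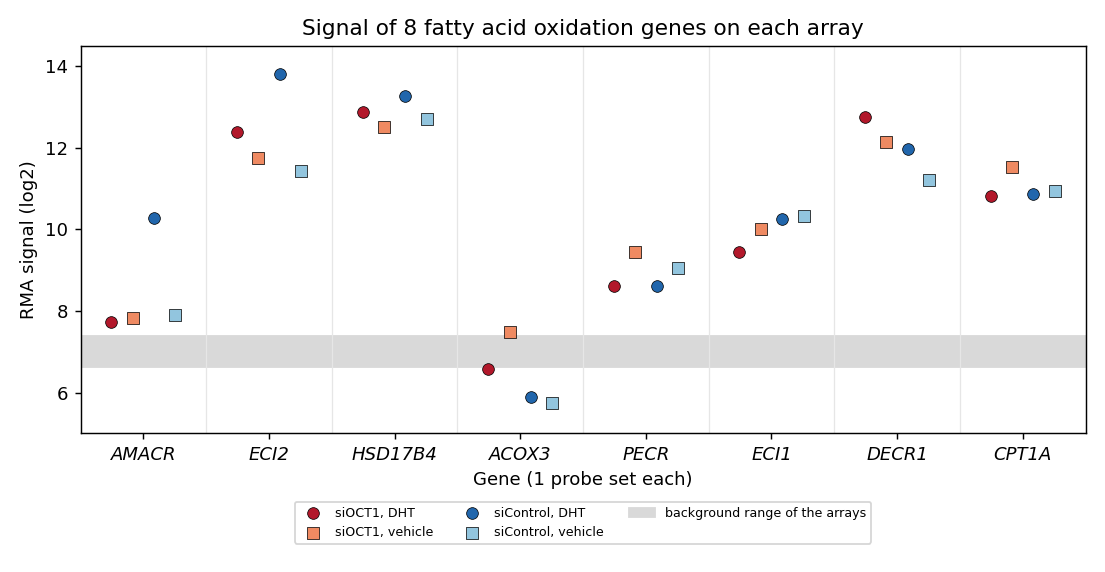
Log2 RMA signal of the 8 genes, 1 point per array, with circles for DHT, squares for vehicle, red shades for siOCT1 and blue shades for siControl. The grey band spans the backgrounds of the 4 arrays, 6.62 to 7.39. AMACR at 10.29 and ECI2 at 13.82 stand above their other 3 arrays in siControl cells with DHT, and ACOX3 lies in or below the band on all arrays but siOCT1 with vehicle.

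The other peroxisomal enzymes among the members follow. HSD17B4, the D-bifunctional protein that carries out the hydration and dehydrogenation of branched and very long chains, read 12.89 in siOCT1 cells with DHT and 12.51 with vehicle, against 13.27 in siControl cells with DHT and 12.71 with vehicle. The 4 values spanned 0.76, and the siControl array with DHT was the highest, as for AMACR and ECI2. Its DHT differences were 0.38 in siOCT1 and 0.56 in siControl cells, both under the 1.5-fold size rule (0.58 on the log2 scale), the siControl one only just, and its siRNA differences were -0.38 in DHT and -0.20 in vehicle.

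ACOX3, a peroxisomal acyl-CoA oxidase of branched chains, read 6.58 in siOCT1 cells with DHT and 7.49 with vehicle, against 5.89 in siControl cells with DHT and 5.75 with vehicle. Only the siOCT1 vehicle array passed its own background. Set against the background of the dimmer array, the gene was at least 1.83-fold higher in siOCT1 than in siControl cells in vehicle. By the same rule it was at least 1.5-fold lower with DHT than with vehicle in siOCT1 cells. Both bounds rest on 7.49 beside a background of 7.39 on that array, the highest background of the arrays. With dim values set to that background the differences shrank to 0.10 and -0.10, so neither bound is firm. Both DHT arrays lay below background, as did both siControl arrays, and no fold is given for those pairs.

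PECR, a peroxisomal enoyl-CoA reductase, works toward chain elongation rather than breakdown. It read 8.60 in siOCT1 cells with DHT and 9.44 with vehicle, against 8.60 in siControl cells with DHT and 9.05 with vehicle. Both vehicle arrays were the higher ones. DHT against vehicle gave -0.84 in siOCT1 and -0.46 in siControl cells, and siOCT1 against siControl 0.01 in DHT and 0.39 in vehicle.

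Of the mitochondrial genes, DECR1 alone passed the limma test. It encodes the dienoyl-CoA reductase, which like the isomerases prepares unsaturated chains. It read 12.75 in siOCT1 cells with DHT and 12.14 with vehicle, against 11.97 in siControl cells with DHT and 11.22 with vehicle. Within each ligand the siOCT1 value was the higher one, and within each siRNA the DHT value was. DECR1 rose with siOCT1 by 0.85 ± 0.22 (SE), with a limma adjusted p of 0.0356, from differences of 0.78 in DHT and 0.92 in vehicle. The DHT differences were 0.61 in siOCT1 and 0.76 in siControl cells, and the DHT term did not pass (0.68 ± 0.22, SE, limma adjusted p of 0.256). The siRNA call was lost without the filter on dim genes (limma adjusted p of 0.0563) and without the intensity trend (limma adjusted p of 0.066). With 1 array a group, the residual of the additive fit holds only the change of the DHT response between siRNAs (1 degree of freedom) and no variation among cultures.

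ECI1, the mitochondrial isomerase, read 9.44 in siOCT1 cells with DHT and 10.00 with vehicle, against 10.26 in siControl cells with DHT and 10.32 with vehicle. The siOCT1 array with DHT was the lowest. Its siRNA differences were -0.82 in DHT and -0.31 in vehicle (limma adjusted p of 0.163), and its DHT differences -0.56 in siOCT1 and -0.06 in siControl cells. ECI1 therefore lacked the high siControl value with DHT that ECI2 had.

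CPT1A, the carnitine palmitoyltransferase that limits entry of long chains into mitochondria, read 10.81 in siOCT1 cells with DHT and 11.54 with vehicle, against 10.87 in siControl cells with DHT and 10.93 with vehicle. The siOCT1 vehicle array stood above the other 3. Its DHT differences were -0.73 in siOCT1 and -0.06 in siControl cells, and its siRNA differences -0.06 in DHT and 0.61 in vehicle. Neither term of the limma fit passed for CPT1A (adjusted p of 0.486 for siRNA and 0.56 for DHT).

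Counted by the size rule, AMACR, ECI1 and ECI2 were lower in siOCT1 than in siControl cells in DHT (background 26% of measured genes), and DECR1 and ACOX3 were higher (background 18.9%), with ACOX3 below background on both arrays. In vehicle, ACOX3, DECR1 and CPT1A were higher (background 22.9%) and 0 of the 8 lower (background 28.7%). With DHT, ECI2 and DECR1 were higher in siOCT1 cells (background 14.1%) and ACOX3, PECR and CPT1A lower (background 11.8%). In siControl cells AMACR, ECI2 and DECR1 were higher with DHT (background 15.8%) and 0 lower (background 12.8%). The change of the response was negative past the size rule for AMACR, ECI2, ACOX3 and CPT1A (background 18%) and positive for 0 (background 17.5%). For ACOX3 it rests on 3 values below background and shrank to -0.10 once dim values were set to the highest background. AMACR and ECI2 were chosen on these DHT responses, so nothing is read from their share. The limma siRNA term called 1 of the 8 higher (background 9.1%) and 0 lower (background 15.3%), and the DHT term called 0 higher (background 0.679%) and 0 lower (background 0.305%). At an unadjusted p under 0.05 the limma siRNA term passed for 3 of the 8, AMACR, ACOX3 and DECR1 (background 39.3%), and the DHT term for 3, DECR1, PECR and ECI2 (background 13.5%). The terms share the residual that chose AMACR and ECI2 and are no test of those genes.

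**Figure D3:**
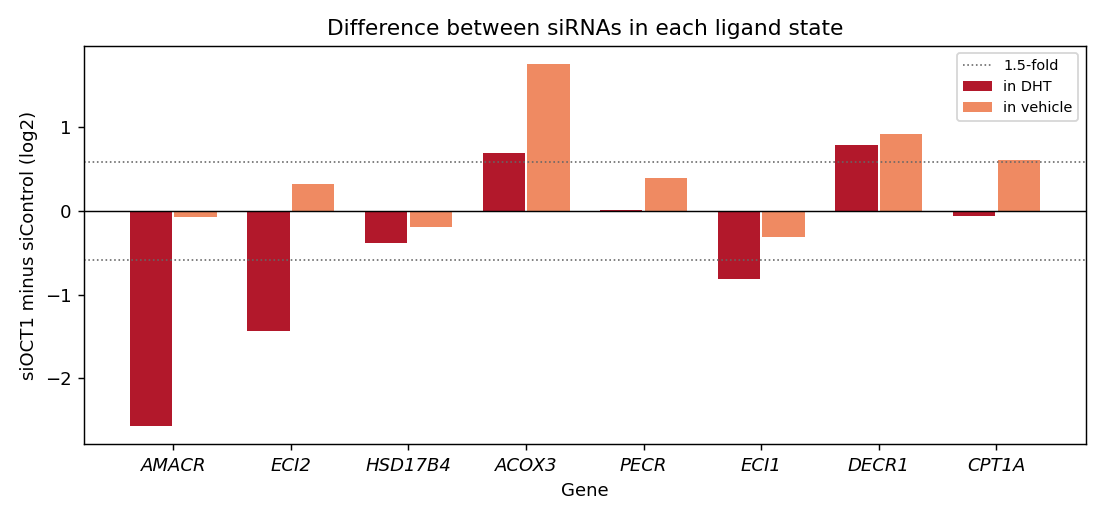
Difference between siOCT1 and siControl cells (log2) for the 8 genes, in DHT (dark bars) and in vehicle (light bars), with dotted lines at 1.5-fold in either direction. AMACR at -2.57 and ECI2 at -1.43 were low in DHT, with -0.07 and 0.32 in vehicle, and DECR1 was high in both.

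Other genes of the pathway were taken from 8 lists, 106 genes in all. Of these 96 had a named probe set and 69 counted as measured. The 69 include ACADL, PEX11G, PPARA and ESRRG, which lay below background on all 4 arrays. The limma siRNA term called 9 of the 69 higher (background 9.1%) and 4 lower (background 15.3%), and the DHT term 2 higher (background 0.679%) and 0 lower (background 0.305%). Their median DHT difference was -0.04 in siOCT1 and -0.06 in siControl cells, beside 0.02 and -0.03 over all measured genes. Their median siRNA difference was -0.04 in DHT and 0.03 in vehicle, beside -0.07 and -0.06 over all measured genes.

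The peroxisomal beta-oxidation list, with 11 of 18 named genes measured, had 2 genes that rose with siOCT1. CROT, which makes carnitine esters of the medium chains that leave peroxisomes, read 14.42 in siOCT1 cells with DHT and 12.32 with vehicle, against 13.59 in siControl cells with DHT and 10.48 with vehicle. It rose with DHT by 2.61 ± 0.28 (SE, limma adjusted p of 0.0154), and the response was present under both siRNAs, at 2.10 in siOCT1 and 3.11 in siControl cells. It also rose with siOCT1 by 1.34 ± 0.28 (SE, limma adjusted p of 0.0186). PHYH, the phytanoyl-CoA hydroxylase that begins alpha-oxidation of branched chains, rose with siOCT1 by 1.02 ± 0.25 (SE, limma adjusted p of 0.0299). The thiolase ACAA1 and the dienoyl isomerase ECH1 were named after their values were seen. ACAA1 had siRNA differences of -0.04 in DHT and -0.06 in vehicle. ECH1 had 0.05 in DHT and 0.02 in vehicle, but read 18.17 to 18.35, in the range above 16 where the deposited scale is uncertain.

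Of the mitochondrial list, 14 of 17 named genes were measured, with 1 gene risen and 1 fallen with siOCT1 and 0 called for DHT. HADHB, the thiolase subunit of the trifunctional protein, rose by 0.84 ± 0.21 (SE, limma adjusted p of 0.0311). Its partner HADHA, named for that reason, differed by 0.22 in DHT and -0.51 in vehicle. ACAD9, an acyl-CoA dehydrogenase that also assembles respiratory complex I, fell by 0.99 (limma adjusted p of 0.0426). ACAD10 was at least 2.29-fold higher in siOCT1 cells in DHT and differed by 0.66 in vehicle. ACADM, the medium-chain dehydrogenase, had DHT differences of 0.85 in siOCT1 and 1.59 in siControl cells and did not pass the test (limma adjusted p of 0.112).

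In the carnitine list 4 of 6 named genes were measured. SLC22A5, the plasma membrane carnitine transporter, rose with siOCT1 by 1.07 ± 0.31 (SE, limma adjusted p of 0.0481), at least 2.71-fold in DHT. CPT2, which reverses the CPT1 reaction inside mitochondria, had DHT differences of -0.61 in siOCT1 and -0.68 in siControl cells (limma adjusted p of 0.342).

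In the list of acyl-CoA synthesis and binding, with 7 of 14 named genes measured, DBI, an acyl-CoA-binding protein, was the 1 gene called. It rose with DHT (3.95 in siOCT1 and 3.64 in siControl cells, limma adjusted p of 0.00201) and fell by 2.05 with siOCT1 (limma adjusted p of 0.00318). Of 9 measured genes of branched amino acid and propionyl-CoA breakdown, PCCA rose with siOCT1 by 1.03 and MCCC2 by 0.68 (limma adjusted p of 0.0424 and 0.0242). MCCC2 read 16.1 in siOCT1 cells with DHT, in the range above 16 where the scale is uncertain. None of 9 measured peroxisome assembly genes passed the limma test for either term.

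The remaining peroxisomal genes, 9 of 10 named genes measured, moved both ways with siOCT1. Catalase (CAT), which removes the hydrogen peroxide that acyl-CoA oxidases make, rose by 1.48 ± 0.24 (SE, limma adjusted p of 0.00824). HSDL2, a peroxisomal dehydrogenase-like protein, rose as well, by 1.23 in DHT and 0.77 in vehicle (limma adjusted p of 0.0312), and so did IDH1, by 0.68 (limma adjusted p of 0.0444), named because it was called. PXMP4, a peroxisomal membrane protein, fell by 1.52 (limma adjusted p of 0.00994). The peroxisomal protease LONP2 had DHT differences of 1.05 in siOCT1 and 1.86 in siControl cells (limma adjusted p of 0.0565). Among 6 measured regulators, TFAM, which maintains mitochondrial DNA, fell by 1.73 ± 0.24 with siOCT1 (SE, limma adjusted p of 0.00515), and the other 5 did not pass.

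AMACR passed the size rule upward with DHT in siControl cells and stayed under it either way in siOCT1 cells. This layout was shared by 9 of the 69 pathway genes, against a background of 10.3% of measured genes, and they are named after their values were seen. FAR1, which makes the fatty alcohols of ether lipids, had DHT differences of -0.08 in siOCT1 and 1.43 in siControl cells. ABCD3, the peroxisomal importer of branched acyl-CoAs, had 0.27 in siOCT1 and 1.37 in siControl cells. HACL1, the lyase of alpha-oxidation, had -0.32 in siOCT1 and 1.07 in siControl cells. The other 6 were ESRRG, DBT, BCKDHB, MCCC2, PEX16 and PEX3, with 0.61 (PEX3) to 1.19 (ESRRG) in siControl cells and -0.03 (PEX3) to 0.53 (BCKDHB) in siOCT1 cells. ESRRG lay below background on all 4 arrays. MCCC2 met the layout only narrowly, with 0.51 in siOCT1 and 0.66 in siControl cells. SLC27A2, an acyl-CoA synthetase of very long chains, is named outside the naming rule. It went down with DHT in siControl cells, with -0.43 in siOCT1 and -1.68 in siControl cells.

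**Figure D4:**
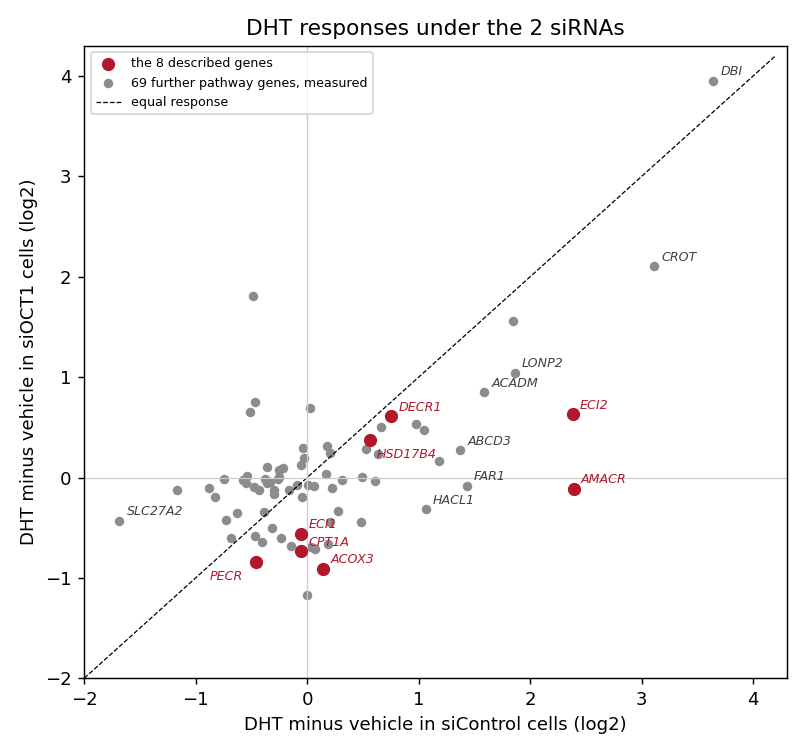
DHT minus vehicle (log2) in siOCT1 cells (vertical axis) against siControl cells (horizontal axis), for the 8 genes (red) and 69 further measured pathway genes (grey), with a dashed line of equal response. AMACR at -0.11 and 2.39 and ECI2 at 0.63 and 2.38 lie far below the line, and CROT and DBI are high on both axes.

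The genes most like AMACR over the 4 arrays, by Euclidean distance of log2 values centred on each gene's mean among 6458 genes above background on every array, were LCOR, RECQL and PKP2, at 0.41, 0.50 and 0.51. LCOR, a nuclear receptor corepressor, read 8.80 in siOCT1 cells with DHT and 8.83 with vehicle, against 11.12 in siControl cells with DHT and 9.29 with vehicle. For ECI2 they were SOX9, ICE2 and ARRDC1, at 0.33, 0.35 and 0.38. SOX9, a transcription factor of prostate epithelium, read 8.31 in siOCT1 cells with DHT and 7.98 with vehicle, against 9.61 in siControl cells with DHT and 7.28 with vehicle. Within a distance of 1 lay 40 genes of AMACR and 116 of ECI2. ECI2 ranked 30 among the neighbours of AMACR, at 0.93, and AMACR ranked 82 among those of ECI2.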

How the data were processed

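Per the labels' protocols, RNA of each 22Rv1 culture was prepared with a whole-transcript kit and read on 1 array. The deposited values are log2 signals. The submitters' processing notes name RMA and Affymetrix Expression Console as the authors' tools, and no source used here gives their versions or the array's build. RMA includes a step that brings the arrays toward a common distribution. On each array 327 to 379 values exceeded 16, the top of the log2 range of a scanner with that many bits, so folds hold on the deposited scale.

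Probe sets were named through the platform table, and a gene with several was read on its brightest one. The measured level of 6.51 is the median, over genes, of a gene's highest value. Differences between single arrays have no test and were counted at 1.5-fold. An "at least" fold sets the brighter array against the background of the dimmer one. A limma 3.58.1 fit in R 4.3.3 took siRNA and ligand as additive terms over all measured genes (eBayes with an intensity trend, Benjamini-Hochberg adjustment, threshold 0.05), and "rose" and "fell" refer to its calls. Its prior had 5.85 degrees of freedom.

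The member genes, the lists and the tests were chosen with earlier results of these data known. Named genes were all members, up to 3 per list for siRNA and 2 for DHT with the largest mean difference past 1.5-fold in both pairs, and the 3 nearest genes to AMACR and ECI2. Further names are marked where used. Alternatives were a 2-fold rule, no filter or a stricter one, averaged probe sets, loess centring, centring on positive controls, 32 added before the logarithm, values raised to the highest background, and limma without trend or with robust moderation. Python 3.11.15 did the rest.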

Additional observations from a re-analysis of the deposited data

Results flagged for a closer look

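Some effects pointed in opposite directions in the 2 groups compared, with at least 1 of them past 1.5-fold. They were sought among 62 genes, members and measured pathway genes that were above background on all 4 arrays. Each rests on 1 array per group, and the difference was not tested.

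The DHT response did so for 8 genes, 7 of them lower in siOCT1 cells. The share over all measured genes was not computed, so nothing is read from this count or its split. AMACR was chosen on its DHT response. In several pairs the smaller value was slight, such as 0.03 for CRAT in siControl cells and -0.03 for PEX3 in siOCT1 cells. The direction of such values is uncertain. AMACR had -0.11 in siOCT1 and 2.39 in siControl cells, HACL1 had -0.32 in siOCT1 and 1.07 in siControl cells, and FAR1 had -0.08 in siOCT1 and 1.43 in siControl cells. PEX3 had -0.03 in siOCT1 and 0.61 in siControl cells, CRAT -0.69 in siOCT1 and 0.03 in siControl cells, ACOT8 -0.67 in siOCT1 and 0.18 in siControl cells, and MMUT -0.71 in siOCT1 and 0.07 in siControl cells. PCCB went the other way, with 0.75 in siOCT1 and -0.47 in siControl cells. FABP5, a fatty acid carrier below background in siOCT1 cells with vehicle, lay outside these 62 and is named outside the naming rule. It had 1.81 in siOCT1 and -0.48 in siControl cells.

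The difference between siOCT1 and siControl cells did so for 9 genes, 8 of them lower in DHT. Here too no share over all measured genes was computed, and nothing is read from the split. ECI2 was chosen on its DHT responses. For each gene the gap between the paired values equals its change of the DHT response, so the lists are not separate. Some values were again slight, such as -0.03 for ACADM and LONP2 in DHT, and their direction is uncertain. ECI2 had -1.43 in DHT and 0.32 in vehicle, CPT1A -0.06 in DHT and 0.61 in vehicle, and ABCD3 -0.79 in DHT and 0.31 in vehicle. HACL1 had -1.08 in DHT and 0.30 in vehicle, ACOT8 -0.78 in DHT and 0.07 in vehicle, and ACBD3 -0.81 in DHT and 0.11 in vehicle. ACADM had -0.03 in DHT and 0.71 in vehicle, and LONP2 -0.03 in DHT and 0.78 in vehicle. SLC27A2 had 0.28 in DHT and -0.98 in vehicle.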

How the results depend on the processing

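No paired analysis was possible because each group held 1 array and the labels carry no replicate numbers. With a 2-fold rule the members past the threshold were 2 in place of 5 for siOCT1 against siControl in DHT, 1 in place of 3 in vehicle, and 0 in place of 5 for DHT against vehicle in siOCT1, the last 3 with loess centring. Of the members, the limma siRNA term called 0 without a filter on dim genes or without the trend and 2 with arrays centred on positive controls (ACOX3 added), in place of 1, and that centring gave 1 for the DHT term (ECI2) in place of 0. Over all genes the siRNA term called 2158, and 1405 once dim values were set to the highest background. The DHT term called 87, with 57 without a filter, 45 with the stricter filter, 30 without trend, 293 with arrays centred on positive controls and 9 with dim values so raised. With that setting the ACOX3 differences were 0.00 in DHT and 0.10 in vehicle for siOCT1 against siControl, and the change of its DHT response was -0.10. No member's difference past 1.5-fold changed sign under the alternatives that could be run. Causes were not tested. The number of arrays limits the precision.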
